A study of Mus musculus with 10 samples.

Results

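The genes described here are the 43 listed enzymes and transporters of one-carbon metabolism and nucleotide synthesis, found by gene symbol among the 52636 Ensembl genes of a bulk RNA sequencing count table. They were chosen by function from a list of folate, serine, purine and pyrimidine genes, and all 43 had a row in the table. The choice of these genes and of the other lists below was made with earlier results of these data known. The samples were nonclassical monocytes, the patrolling monocyte subset, sorted from mouse bone marrow at a stated purity of 98%, with 5000 to 10000 cells collected per sample. The WT group held 5 libraries from LAIR1+/+ mice and the LAIR1KO group 5 libraries from LAIR1-/- mice, and the mice received no treatment. LAIR1 is a collagen-binding receptor that dampens leukocyte activation, and the comparison asks how transcripts of these cells differ without it. The sources used here do not give how the allele was made or the strain, age and sex of the mice. Whether each library is a separate animal is also not stated, so the spread behind each p-value may be technical.

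One-carbon metabolism passes single carbon units, taken mainly from serine, onto the vitamin cofactor folate. A mitochondrial and a cytosolic set of enzymes run in parallel, and the cytosolic units are spent on thymidylate, on purine rings and on methionine. Purines are built stepwise on phosphoribosyl pyrophosphate (PRPP) to inosine monophosphate (IMP), the branch point to AMP and GMP, while pyrimidines are built as a ring that is then joined to PRPP. Ribonucleotide reductase turns ribonucleotides into the deoxynucleotides (dNTPs) used for DNA. Cells that divide draw on the de novo routes, whereas resting cells can live largely on salvage of preformed bases and nucleosides. Mature monocytes circulate without dividing, and their marrow precursors divide.

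Total counts ran from 12106209 to 15356924 per library, and 13469 genes were abundant enough to test. Levels are given as CPM, the share of a library's counts scaled to a common total, with libraries scaled by TMM, and lists of 5 values run from replicate 1 to replicate 5. A CPM with ± is the mean and SD of the 5 libraries of a group. Differences are log2 fold changes, LAIR1KO minus WT, with their SE, from edgeR's quasi-likelihood test. The adjusted p is that of Benjamini and Hochberg over all 13469 genes, and genes with adjusted p below 0.05 are said to pass. Lair1 itself stood at 328 to 400 CPM in WT and 0 to 0.673 CPM in the LAIR1KO libraries (two-sided exact permutation p = 0.00794, the smallest that 5 against 5 libraries can give), so each library matched its label. All 12 nonclassical monocyte markers examined were expressed, with summed levels of 14800 to 18000 CPM in WT and 11500 to 15900 CPM in LAIR1KO. All 12 had log2 fold changes below 0 (-1.03 to -0.13, median -0.26), while 49.7% of all genes tested had one above 0. In edgeR 0 of these markers passed the threshold, 5 being lower at an unadjusted p below 0.05, and DESeq2 called 1 lower. The number of all genes that passed was 914, of which 75.3% were higher; with library totals for scaling that share was 90.1%, and the median of all genes moved from 0.00 to 0.13, and with the trend on GC content and length removed it was 62.8%. In a bulk sample, more cells of a type and more RNA per cell cannot be told apart, and this holds for every difference below.

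Of the 43 genes, 41 passed the filter on low counts, and 23 of these were higher in LAIR1KO while 0 were lower. The count of lower members was 0 in DESeq2 and limma voom also, and 1 at an unadjusted p below 0.05 in edgeR. Among all 13469 genes tested, 5.11% were higher and 1.68% lower, so the 56.1% of tested members that were higher lay above the background. The median log2 fold change of the 41 members was 0.65, against 0.00 for all genes tested. For 22 members every LAIR1KO library lay above every WT library, as it did for 5.61% of all genes tested, and for 0 members every LAIR1KO library lay below, against 2.06% of all genes. The change exceeded 2-fold for 13 of the 23. The genes that rose were spread over serine synthesis, folate use, the de novo purine and pyrimidine routes, ribonucleotide reductase and thymidylate supply. Hprt, the purine salvage enzyme, and Dck, the kinase that salvages deoxycytidine, were among the 18 tested members that did not pass, whereas Tk1, which salvages thymidine, rose.

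**Figure D1:**
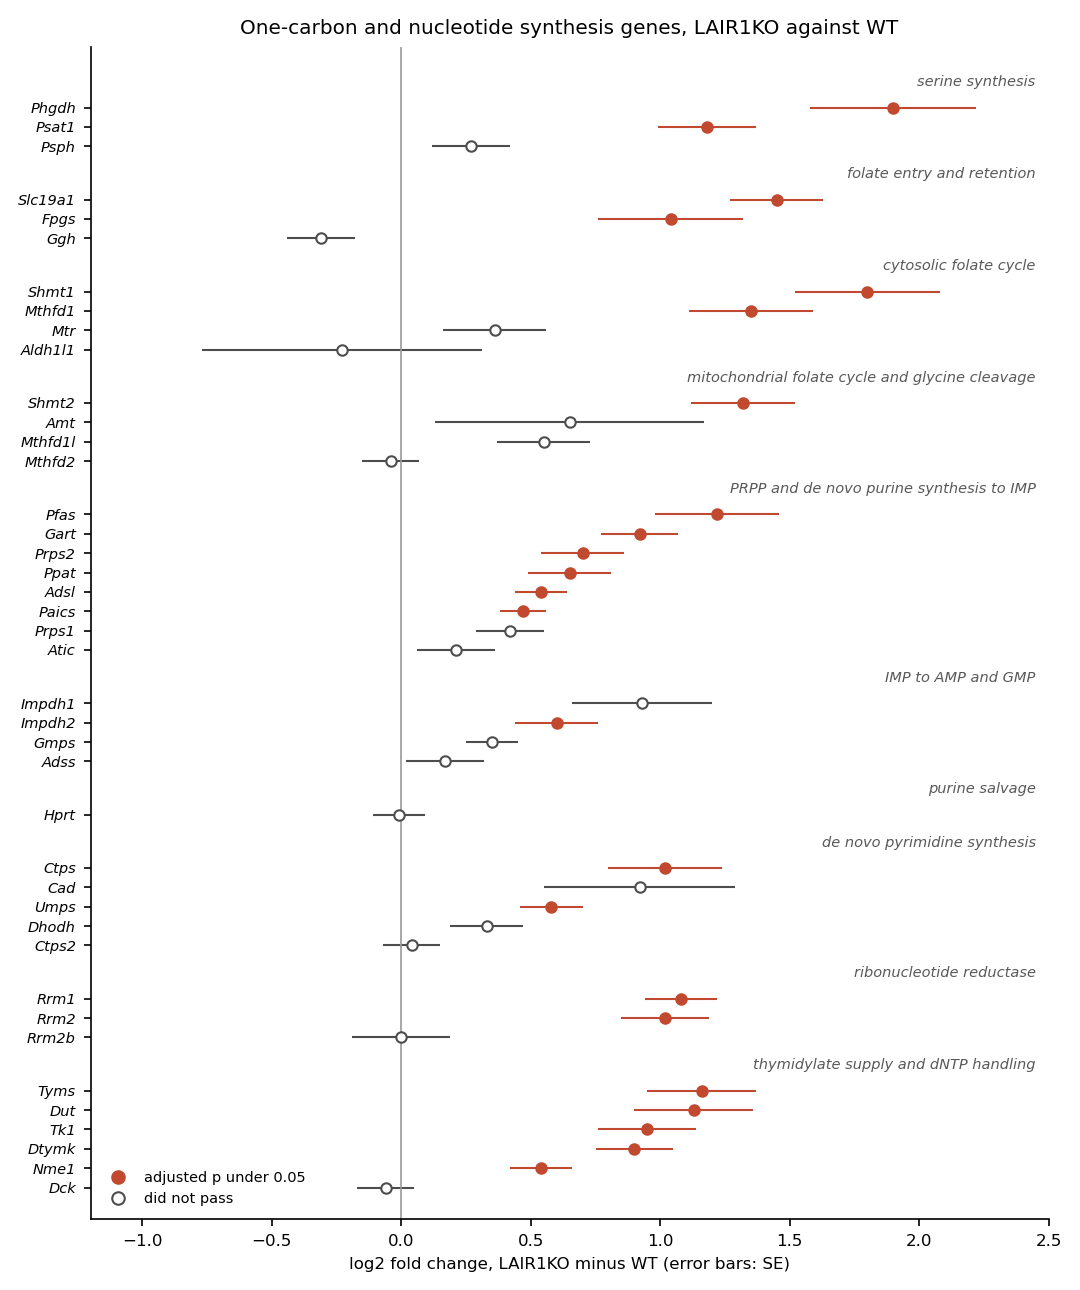
Log2 fold change of each of the 41 tested members, LAIR1KO minus WT, grouped by role on the vertical axis. Points are edgeR estimates with bars of 1 SE, filled where the adjusted p was under 0.05. The 23 filled points all lie to the right of 0, from 0.47 for Paics to 1.90 for Phgdh.

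Serine, the main donor of single carbon units, is made from a glycolytic intermediate by 3 enzymes, and the genes of the first 2 rose. Phgdh, the dehydrogenase that commits carbon to serine (ENSMUSG00000053398, GRCm38 chromosome 3, 98313170 to 98339990), stood at 1.42, 2.86, 1.34, 1.93 and 1.94 CPM in the WT libraries and 6.45, 5.65, 3.78, 8.80 and 10.9 CPM in the LAIR1KO libraries. No value of the groups overlapped (log2 fold change 1.90 ± 0.32, adjusted p = 0.00393). Psat1, the transaminase of the middle step, stood at 12.3, 13.6, 11.9, 21.2 and 16.4 CPM in the WT libraries and 31.8, 30.0, 28.8, 34.5 and 46.4 CPM in the LAIR1KO libraries. All 5 LAIR1KO values were above the highest WT value (log2 fold change 1.18 ± 0.19, adjusted p = 0.00282). Psph, the phosphatase that completes the route, stood at 13.7 ± 2.29 CPM (WT) against 16.5 ± 1.57 CPM (LAIR1KO), and its groups overlapped (log2 fold change 0.27 ± 0.15, adjusted p = 0.324). Exons of Psph overlap Cct6a, a gene on the opposite strand, over 10.4% of their length, and Cct6a held a mean of 2790 counts against 209 for Psph.

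Folate enters the cell through carriers and is kept there by a glutamate tail. Slc19a1, the reduced folate carrier (ENSMUSG00000001436, GRCm38 chromosome 10, 77032241 to 77061002), stood at 12.4, 11.8, 11.8, 10.3 and 14.6 CPM in the WT libraries and 24.3, 33.8, 26.2, 42.2 and 40.5 CPM in the LAIR1KO libraries. The lowest LAIR1KO library was well above the highest WT library (log2 fold change 1.45 ± 0.18, adjusted p = 0.000661). Fpgs, the synthetase that adds the tail, stood at 8.95, 12.5, 4.76, 7.59 and 5.65 CPM in the WT libraries and 20.3, 11, 10.7, 20.5 and 18.5 CPM in the LAIR1KO libraries. Its groups overlapped between WT replicate 2 and LAIR1KO replicates 2 and 3 (log2 fold change 1.04 ± 0.28, adjusted p = 0.0438). The call for Fpgs was lost without any of WT replicates 1, 3, 4 and 5 or LAIR1KO replicates 1, 4 and 5 (adjusted p = 0.0708 to 0.114). Ggh, the hydrolase that removes the tail, stood at 58.8, 62.6, 63.9, 64.4 and 57.6 CPM in the WT libraries and 56.3, 50.6, 60.4, 43.8 and 36.4 CPM in the LAIR1KO libraries. Its fold change, the lowest of the members, missed the threshold (log2 fold change -0.31 ± 0.13, adjusted p = 0.187), and LAIR1KO replicates 4 and 5 had its lowest values.

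In the cytosolic folate cycle, Shmt1 and Mthfd1 rose. Shmt1, the cytosolic serine hydroxymethyltransferase, which moves a carbon from serine to folate (ENSMUSG00000020534, GRCm38 chromosome 11, 60788104 to 60811718), stood at 7.86, 13.3, 5.58, 5.79 and 11.2 CPM in the WT libraries and 27.6, 27.4, 18.0, 40.3 and 38.5 CPM in the LAIR1KO libraries. Its lowest LAIR1KO value, in replicate 3, exceeded its highest WT value, in replicate 2 (log2 fold change 1.80 ± 0.28, adjusted p = 0.00234). Exons of Smcr8, a gene on the opposite strand, overlap 4.74% of the exons of Shmt1, with a mean of 404 counts against 272. Mthfd1, an enzyme with 3 activities that interconverts the folate-bound carbon units, stood at 21.1, 24.7, 24.0, 26.6 and 20.3 CPM in the WT libraries and 42.5, 50.3, 36.9, 70.0 and 98.9 CPM in the LAIR1KO libraries. The WT libraries lay close together, and LAIR1KO replicates 4 and 5 were the highest (log2 fold change 1.35 ± 0.24, adjusted p = 0.00471, and 0.89 without those 2 libraries, adjusted p = 0.0118). Mtr, the methionine synthase, stood at 44.3, 28.7, 37.9, 25.4 and 41.0 CPM in the WT libraries and 37.9, 36.6, 36.7, 61.4 and 55.6 CPM in the LAIR1KO libraries. Its groups overlapped (log2 fold change 0.36 ± 0.20, adjusted p = 0.305). Aldh1l1, which removes the formyl unit from folate, was low, with 0.15 to 3.70 CPM in WT and 1.28 to 2.46 CPM in LAIR1KO (log2 fold change -0.23 ± 0.54, adjusted p = 0.852).

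In the mitochondrial arm, 1 of the 4 tested genes rose. Shmt2, the mitochondrial serine hydroxymethyltransferase, stood at 26.8, 35.3, 24.8, 36.7 and 37.1 CPM in the WT libraries and 80.6, 69.1, 49.7, 88.0 and 114 CPM in the LAIR1KO libraries, with no overlap (log2 fold change 1.32 ± 0.20, adjusted p = 0.00201). Mthfd2, the next enzyme of that arm, stood at 82.6, 78.3, 107, 102 and 83.7 CPM in the WT libraries and 90.4, 83.0, 103, 85.8 and 79.8 CPM in the LAIR1KO libraries. Its groups covered the same range (log2 fold change -0.04 ± 0.11, adjusted p = 0.898). Mthfd1l, which releases formate for export to the cytosol, stood at 29.5, 31.5, 25.7, 29.5 and 37.9 CPM in the WT libraries and 41.9, 34.2, 34.7, 51.7 and 63.9 CPM in the LAIR1KO libraries. It had no call with all libraries (log2 fold change 0.55 ± 0.18, adjusted p = 0.0864), although it passed without LAIR1KO replicate 3 (log2 fold change 0.64, adjusted p = 0.0467), in DESeq2 (adjusted p = 0.0426) and with library totals (adjusted p = 0.0417). Its log2 fold change was 0.26 without LAIR1KO replicates 4 and 5 (adjusted p = 0.4). Amt, of the glycine cleavage system, held 0.337 to 2.88 CPM across all libraries and had no call (log2 fold change 0.65 ± 0.52, adjusted p = 0.511). Gldc, the decarboxylase of that system, and Aldh1l2, the mitochondrial counterpart of Aldh1l1, were the 2 members under the filter, with 3 counts each in all 10 libraries together; a count of 3 corresponds to 0.192 to 0.252 CPM in these libraries.

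**Figure D2:**
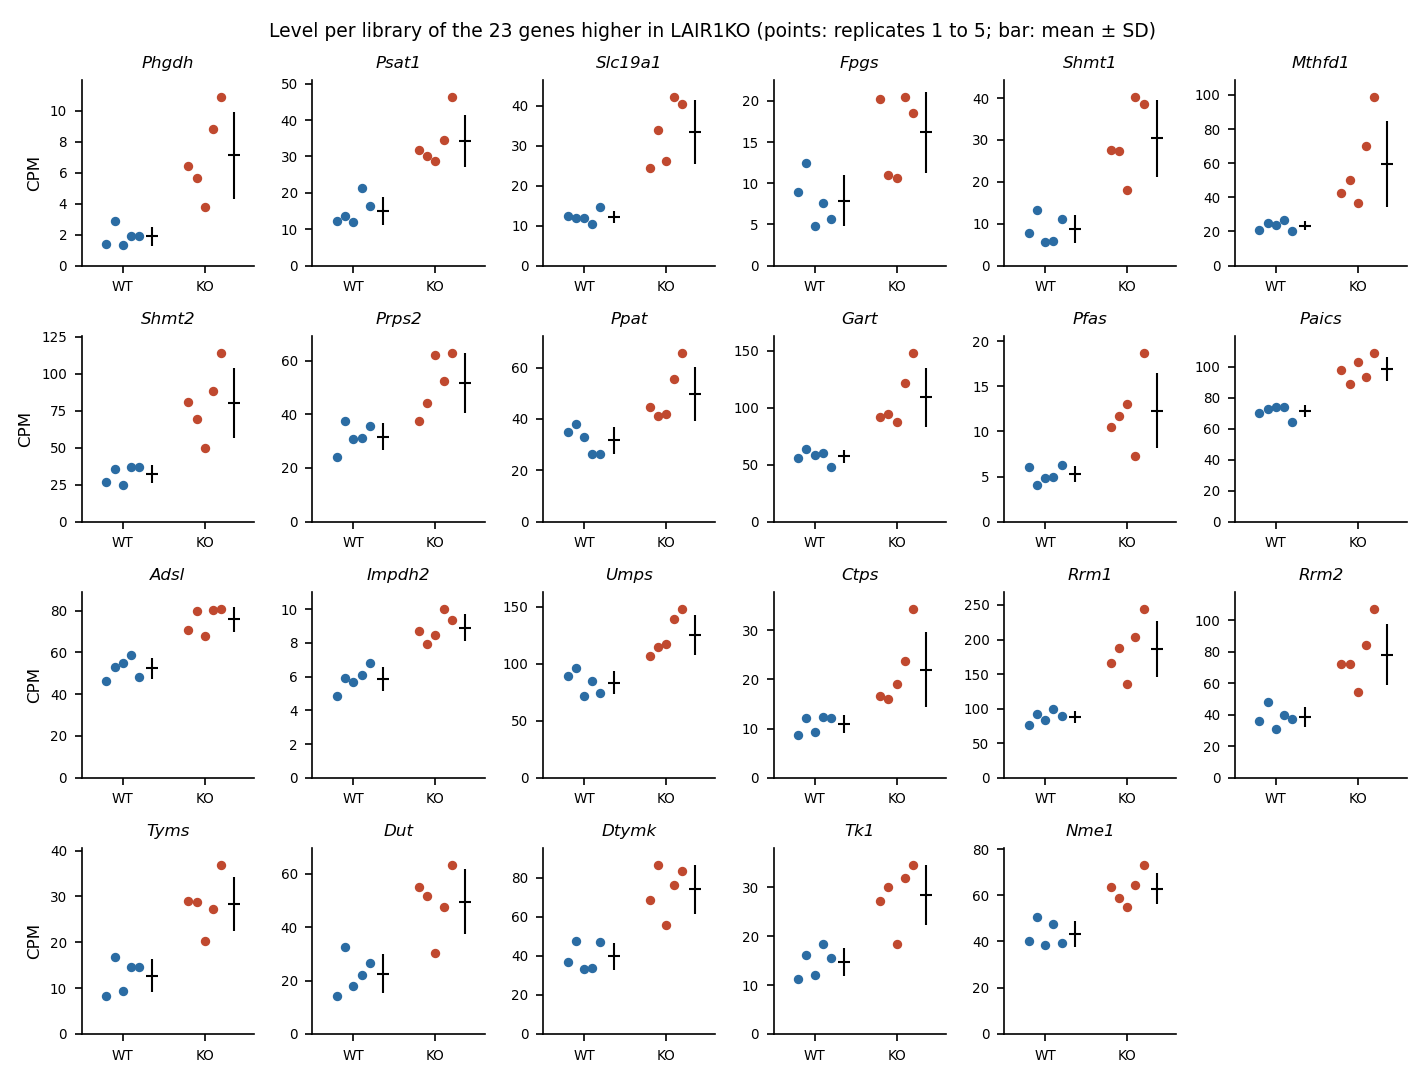
Level in CPM (vertical axes, starting at 0) of the 23 members that rose, in the 5 WT and the 5 LAIR1KO libraries (points, replicates 1 to 5 from left to right), with the mean and SD beside each group. The groups are separate in 21 of the 23 panels and overlap for Fpgs and Dut.

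In de novo purine synthesis 6 of 8 members rose, and the other 2 also had fold changes above 0. Ppat, the amidotransferase of the committed step, and Paics, which carries out 2 later steps, are neighbours on chromosome 5, on opposite strands and with overlapping first exons. Their start regions are shown because the 2 genes share this stretch of the chromosome and both rose. The sequences are RefSeq promoter windows on GRCm38.p6, 250 bases before to 50 after the annotated start, written 5′ to 3′ on the gene's strand, with capitals marking 2 matches of an E2F motif in Ppat and an E-box followed by a CCAAT box in Paics.
Ppat (chr5:76951529-76951828, minus strand): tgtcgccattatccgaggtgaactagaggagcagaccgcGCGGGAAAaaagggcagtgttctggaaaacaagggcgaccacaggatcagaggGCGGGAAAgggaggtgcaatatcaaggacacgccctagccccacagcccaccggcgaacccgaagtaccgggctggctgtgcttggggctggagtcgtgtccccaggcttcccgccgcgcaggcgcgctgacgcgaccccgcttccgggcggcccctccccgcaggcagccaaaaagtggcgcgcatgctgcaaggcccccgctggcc
Paics (chr5:76951052-76951351, plus strand): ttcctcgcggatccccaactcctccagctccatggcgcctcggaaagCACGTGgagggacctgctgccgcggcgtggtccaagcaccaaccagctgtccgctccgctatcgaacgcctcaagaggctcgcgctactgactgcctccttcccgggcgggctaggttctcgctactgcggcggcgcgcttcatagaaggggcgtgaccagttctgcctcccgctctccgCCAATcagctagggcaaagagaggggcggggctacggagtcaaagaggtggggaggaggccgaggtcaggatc
The windows shared 0 bases, and the annotated exons of the genes overlapped by 272 bases, from which reads cannot be assigned without knowing the strand.

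Ppat (ENSMUSG00000029246, GRCm38 chromosome 5, 76913249 to 76951578) stood at 34.8, 38.2, 32.9, 26.4 and 26.2 CPM in the WT libraries and 44.5, 41.2, 42.0, 55.7 and 65.7 CPM in the LAIR1KO libraries, and Paics (ENSMUSG00000029247, GRCm38 chromosome 5, 76951307 to 76967509) at 70.5, 73.1, 74.2, 74.0 and 64.7 CPM in the WT libraries and 97.8, 88.7, 103, 93.7 and 109 CPM in the LAIR1KO libraries. The groups did not overlap for either gene (log2 fold change 0.65 ± 0.16, adjusted p = 0.0287 for Ppat; log2 fold change 0.47 ± 0.09, adjusted p = 0.00778 for Paics). Ppat lost its call without WT replicate 3, 4 or 5 or LAIR1KO replicate 4 or 5 (adjusted p = 0.0585 to 0.078), whereas Paics passed in each fit with 1 library left out. Gart, an enzyme with 3 activities in the early part of the route, of which one takes a carbon from folate, stood at 55.6, 63.8, 58.2, 60.6 and 47.9 CPM in the WT libraries and 92.0, 94.2, 87.1, 122 and 148 CPM in the LAIR1KO libraries. It had no overlap (log2 fold change 0.92 ± 0.15, adjusted p = 0.003), and exons of the antisense gene Gm15964 cover 19.7% of its exons, with a mean of 178 counts against 1150.

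Pfas, the synthase that acts between steps of Gart, stood at 6.02, 4.12, 4.83, 4.97 and 6.27 CPM in the WT libraries and 10.5, 11.7, 13.1, 7.32 and 18.7 CPM in the LAIR1KO libraries. The largest fold change of the route was that of Pfas (log2 fold change 1.22 ± 0.24, adjusted p = 0.00859), and LAIR1KO replicate 4 was its lowest LAIR1KO library. Adsl, the lyase that acts both before IMP and on the way to AMP, stood at 46.2, 53.0, 54.7, 58.9 and 48.4 CPM in the WT libraries and 70.7, 79.7, 68.0, 80.2 and 80.7 CPM in the LAIR1KO libraries, with no overlap (log2 fold change 0.54 ± 0.10, adjusted p = 0.00685). Prps2, a synthetase of PRPP, stood at 24.1, 37.4, 30.6, 31.0 and 35.5 CPM in the WT libraries and 37.5, 44.1, 62.0, 52.3 and 62.8 CPM in the LAIR1KO libraries. LAIR1KO replicate 1 lay just above WT replicate 2 (log2 fold change 0.70 ± 0.16, adjusted p = 0.0215), and the call was lost without WT replicate 1 or 3 or LAIR1KO replicate 4 or 5 (adjusted p = 0.0516 to 0.0587). Its isozyme Prps1 stood at 33.3 ± 4.44 CPM (WT) against 44.6 ± 6.5 CPM (LAIR1KO) and missed the threshold in edgeR (log2 fold change 0.42 ± 0.13, adjusted p = 0.0786), while it passed in DESeq2 (adjusted p = 0.0368) and with library totals (adjusted p = 0.0276). Without LAIR1KO replicates 4 and 5 the log2 fold change of Prps1 was 0.28 (adjusted p = 0.323). Atic, which takes the other folate carbon and closes the ring, stood at 17 ± 1.41 CPM (WT) against 19.7 ± 3.40 CPM (LAIR1KO) with overlapping groups (log2 fold change 0.21 ± 0.15, adjusted p = 0.445).

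Beyond IMP, 1 of 4 genes rose. Impdh2, an IMP dehydrogenase of the GMP branch, stood at 4.85, 5.89, 5.65, 6.07 and 6.82 CPM in the WT libraries and 8.69, 7.94, 8.49, 10 and 9.35 CPM in the LAIR1KO libraries. The groups did not overlap (log2 fold change 0.60 ± 0.16, adjusted p = 0.0438), yet 9 of the 10 fits that left out 1 library ended the call, all but that without WT replicate 5 (adjusted p = 0.0503 to 0.117). The annotated processed copy Impdh2-ps held 3769 counts over all libraries against 1020 for Impdh2, so reads of this gene may be split between the copies. Impdh2-ps, looked up after the values were seen, moved by a like amount (log2 fold change 0.51 ± 0.13, adjusted p = 0.0306). Impdh1, the other isozyme, stood at 18.8, 17.9, 8.70, 13.5 and 8.21 CPM in the WT libraries and 24.0, 19.7, 18.3, 28.9 and 37.2 CPM in the LAIR1KO libraries. With all libraries it missed the threshold (log2 fold change 0.93 ± 0.27, adjusted p = 0.0543), which it reached without WT replicate 1 (adjusted p = 0.0452) or LAIR1KO replicate 3 (adjusted p = 0.0355). Impdh1 also passed in DESeq2 (adjusted p = 0.0112), limma voom (adjusted p = 0.046), limma voom with quality weights (adjusted p = 0.0482), library totals (adjusted p = 0.0303) and without the filter on low counts (adjusted p = 0.0223). Its log2 fold change was 0.62 without LAIR1KO replicates 4 and 5 (adjusted p = 0.272). Gmps, which makes GMP, stood at 77.0 ± 8.27 CPM (WT) against 97.9 ± 8.11 CPM (LAIR1KO) with all LAIR1KO values above WT (log2 fold change 0.35 ± 0.10, adjusted p = 0.0568). The call for Gmps was made without WT replicate 2 (adjusted p = 0.0476), in DESeq2 (adjusted p = 0.0178) and with library totals (adjusted p = 0.0154). Without LAIR1KO replicates 4 and 5 the log2 fold change of Gmps was 0.27 (adjusted p = 0.224). Adss, the first enzyme to AMP, stood at 88.4, 107, 87.1, 99.5 and 67.5 CPM in the WT libraries and 81.5, 107, 136, 93.5 and 89.1 CPM in the LAIR1KO libraries, with overlapping groups (log2 fold change 0.17 ± 0.15, adjusted p = 0.558).

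Hprt, which salvages hypoxanthine and guanine, stood at 227, 198, 172, 214 and 161 CPM in the WT libraries and 196, 197, 210, 187 and 179 CPM in the LAIR1KO libraries. Its groups covered the same range (log2 fold change -0.01 ± 0.10, adjusted p = 0.987).

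Among the 5 genes of pyrimidine synthesis, Umps and Ctps rose. Umps, the enzyme that completes UMP, stood at 89.5, 96.0, 72.2, 85.3 and 74.7 CPM in the WT libraries and 107, 115, 117, 139 and 148 CPM in the LAIR1KO libraries, with no overlap (log2 fold change 0.58 ± 0.12, adjusted p = 0.0104). Ctps, a CTP synthase, stood at 8.62, 12.1, 9.22, 12.3 and 12.1 CPM in the WT libraries and 16.7, 16.0, 19.1, 23.8 and 34.3 CPM in the LAIR1KO libraries, and LAIR1KO replicates 4 and 5 were its highest libraries (log2 fold change 1.02 ± 0.22, adjusted p = 0.0144). Ctps2, the isozyme, stood at 111, 87.1, 122, 114 and 119 CPM in the WT libraries and 118, 115, 131, 110 and 96.7 CPM in the LAIR1KO libraries. The values of Ctps2 overlapped throughout (log2 fold change 0.04 ± 0.11, adjusted p = 0.87). Cad, which carries the first 3 activities of the route, stood at 27.8, 27.3, 28.6, 23.5 and 36.5 CPM in the WT libraries and 30.4, 36.6, 20.5, 82.2 and 103 CPM in the LAIR1KO libraries. LAIR1KO replicates 4 and 5 were more than 2-fold above every other library, while LAIR1KO replicate 3 was the lowest of all 10. The difference for Cad missed the threshold (log2 fold change 0.92 ± 0.37, adjusted p = 0.159), but passed without LAIR1KO replicate 3 (log2 fold change 1.13, adjusted p = 0.0427). The log2 fold change of Cad was 0.02 without LAIR1KO replicates 4 and 5 (adjusted p = 0.972). Dhodh, the mitochondrial step, stood at 32.7 ± 6.53 CPM (WT) against 41.1 ± 3.29 CPM (LAIR1KO) and showed no call (log2 fold change 0.33 ± 0.14, adjusted p = 0.188).

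Both subunits of the S-phase ribonucleotide reductase rose, as did the enzymes that keep thymidylate supplied. The promoter windows of Rrm1, Rrm2 and Tyms are shown because their genes were about 2-fold higher in LAIR1KO. Capitals mark CCAAT boxes in Rrm1 (2 matches) and Rrm2 (1 match) and an E-box in Tyms, and the source and layout are those given for Ppat and Paics.
Rrm1 (chr7:102441445-102441744, plus strand): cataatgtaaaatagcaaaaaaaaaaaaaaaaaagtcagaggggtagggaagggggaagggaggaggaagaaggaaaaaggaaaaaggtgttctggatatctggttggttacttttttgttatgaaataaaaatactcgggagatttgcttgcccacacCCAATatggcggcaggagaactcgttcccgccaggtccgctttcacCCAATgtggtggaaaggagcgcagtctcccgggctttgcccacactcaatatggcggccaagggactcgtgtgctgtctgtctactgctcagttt
Rrm2 (chr12:24708004-24708303, plus strand): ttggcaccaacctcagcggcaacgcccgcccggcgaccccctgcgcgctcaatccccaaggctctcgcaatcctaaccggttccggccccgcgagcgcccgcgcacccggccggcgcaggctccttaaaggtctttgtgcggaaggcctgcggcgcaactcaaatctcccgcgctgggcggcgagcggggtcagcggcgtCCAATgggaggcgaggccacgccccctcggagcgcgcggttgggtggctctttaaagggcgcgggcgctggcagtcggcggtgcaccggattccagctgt
Tyms (chr5:30073576-30073875, minus strand): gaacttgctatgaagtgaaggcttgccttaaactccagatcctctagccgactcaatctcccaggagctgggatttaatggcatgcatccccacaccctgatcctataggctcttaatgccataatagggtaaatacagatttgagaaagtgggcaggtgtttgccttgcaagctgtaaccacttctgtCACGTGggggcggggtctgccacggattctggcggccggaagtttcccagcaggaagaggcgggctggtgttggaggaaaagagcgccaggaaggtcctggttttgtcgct
A match is a description of the letters in this window and no evidence of binding.

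Rrm1, the large catalytic subunit (ENSMUSG00000030978, GRCm38 chromosome 7, 102441695 to 102469771), stood at 75.9, 92.8, 83.5, 99.2 and 90.1 CPM in the WT libraries and 166, 188, 136, 204 and 244 CPM in the LAIR1KO libraries. Rrm2, the small subunit made in S phase (ENSMUSG00000020649, GRCm38 chromosome 12, 24708241 to 24714146), stood at 36.1, 48.1, 30.9, 39.9 and 37.4 CPM in the WT libraries and 72.4, 72.3, 54.5, 84.3 and 107 CPM in the LAIR1KO libraries. No values overlapped for either subunit (log2 fold change 1.08 ± 0.14, adjusted p = 0.000952 for Rrm1; log2 fold change 1.02 ± 0.17, adjusted p = 0.00372 for Rrm2). Rrm2b, the small subunit induced by p53 that serves resting cells, stood at 8.78, 6.99, 10.1, 8.76 and 9.60 CPM in the WT libraries and 8.24, 6.79, 8.88, 11.9 and 8.48 CPM in the LAIR1KO libraries, with overlapping groups (log2 fold change 0.00 ± 0.19, adjusted p = 1).

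Tyms, thymidylate synthase, which spends a folate carbon to make dTMP (ENSMUSG00000025747, GRCm38 chromosome 5, 30058202 to 30073617), stood at 8.36, 16.7, 9.37, 14.7 and 14.6 CPM in the WT libraries and 29.0, 28.8, 20.2, 27.3 and 36.8 CPM in the LAIR1KO libraries. Dut, which makes the precursor dUMP and keeps uracil out of DNA, stood at 14.1, 32.7, 17.8, 21.9 and 26.6 CPM in the WT libraries and 55.1, 51.6, 30.2, 47.6 and 63.2 CPM in the LAIR1KO libraries. Tyms was separate between the groups (log2 fold change 1.16 ± 0.21, adjusted p = 0.00654), and Dut overlapped only in that LAIR1KO replicate 3 lay below WT replicate 2 (log2 fold change 1.13 ± 0.23, adjusted p = 0.0116). Tk1, the cytosolic thymidine kinase of dividing cells, stood at 11.3, 16.2, 12.1, 18.4 and 15.6 CPM in the WT libraries and 27.2, 30.1, 18.4, 31.9 and 34.5 CPM in the LAIR1KO libraries, where LAIR1KO replicate 3 was barely above WT replicate 4 (log2 fold change 0.95 ± 0.19, adjusted p = 0.00969). Dtymk, which phosphorylates dTMP, stood at 36.9, 47.6, 33.1, 33.9 and 46.8 CPM in the WT libraries and 68.4, 86.3, 55.5, 76.4 and 83.3 CPM in the LAIR1KO libraries, with no overlap (log2 fold change 0.90 ± 0.15, adjusted p = 0.00356). Nme1, a nucleoside diphosphate kinase, stood at 40.1, 50.5, 38.5, 47.6 and 39.3 CPM in the WT libraries and 63.7, 59.0, 54.8, 64.3 and 73.0 CPM in the LAIR1KO libraries, also with no overlap (log2 fold change 0.54 ± 0.12, adjusted p = 0.014). Exons of Gm20390, a gene on the same strand, cover 12.5% of the exons of Nme1, with a mean of 0 counts against 733. Dck, the deoxycytidine kinase, stood at 114, 107, 109, 89.0 and 90.3 CPM in the WT libraries and 102, 88.5, 83.9, 106 and 108 CPM in the LAIR1KO libraries. Values of Dck were intermixed (log2 fold change -0.06 ± 0.11, adjusted p = 0.801).

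Some isozymes of the same step differed in how far they moved, which was tested as the log2 ratio of their CPM within each library, a value that the scaling of libraries cannot alter. The comparison covered all 7 pairs of related enzymes among the tested members and the neighbours Ppat and Paics, 8 pairs in all, chosen after the values were seen, with p-values adjusted over the 8. The ratio of Ctps to Ctps2 was -3.68, -2.85, -3.73, -3.21 and -3.30 in WT and -2.83, -2.84, -2.77, -2.21 and -1.49 in LAIR1KO. All 5 LAIR1KO libraries were above all WT libraries, although LAIR1KO replicate 2 was only just above WT replicate 2 (difference 0.93 ± 0.31 (SE), two-sided exact permutation p = 0.00794, adjusted p = 0.0212). The ratio of Mthfd1 to Mthfd2 was -1.97, -1.66, -2.16, -1.94 and -2.04 in WT and -1.09, -0.72, -1.49, -0.29 and 0.31 in LAIR1KO, again with no overlap (difference 1.30 ± 0.32 (SE), two-sided exact permutation p = 0.00794, adjusted p = 0.0212). Mthfd1 also rose relative to Mthfd1l (difference 0.74 ± 0.19 (SE), two-sided exact permutation p = 0.00794, adjusted p = 0.0212), from -0.40 ± 0.32 to 0.35 ± 0.28 (SD, n = 5, exact test). The ratio of Rrm2 to Rrm2b was 2.04, 2.78, 1.61, 2.19 and 1.96 in WT and 3.13, 3.41, 2.62, 2.82 and 3.66 in LAIR1KO, where LAIR1KO replicate 3 lay below WT replicate 2 (difference 1.01 ± 0.27 (SE), two-sided exact permutation p = 0.0159, adjusted p = 0.0317).

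Leaving out 1 library says nothing about the stability of these ratios, because the outcome of so small an exact test is then fixed by whether any values overlap. Shmt1 relative to Shmt2 missed the threshold (difference 0.54 ± 0.23 (SE), two-sided exact permutation p = 0.0317, adjusted p = 0.0508). The ratios of Prps2 to Prps1, Impdh1 to Impdh2 and Ppat to Paics did not pass (difference 0.27 ± 0.16 (SE), two-sided exact permutation p = 0.103, adjusted p = 0.138; difference 0.36 ± 0.34 (SE), two-sided exact permutation p = 0.333, adjusted p = 0.333; difference 0.18 ± 0.15 (SE), two-sided exact permutation p = 0.27, adjusted p = 0.308).

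**Figure D3:**
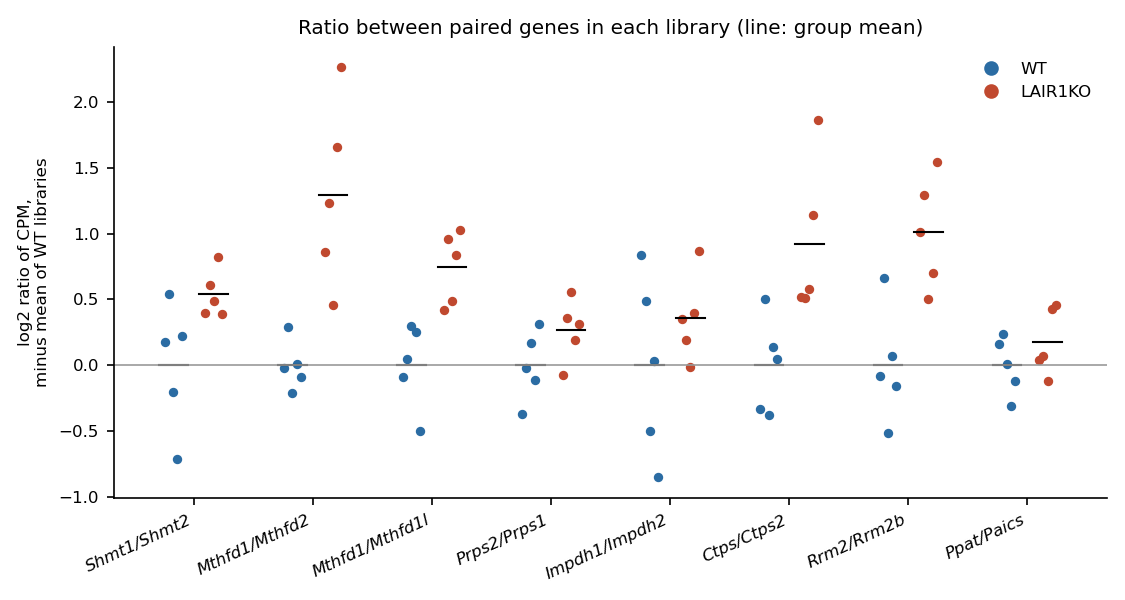
Log2 ratio of CPM between the genes of each of the 8 pairs (horizontal axis) in each library, drawn as the distance from the mean of the WT libraries (vertical axis). Points are libraries and lines are group means. The groups do not overlap for Mthfd1/Mthfd2, Mthfd1/Mthfd1l and Ctps/Ctps2, and the difference is 1.01 for Rrm2/Rrm2b.

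Levels were compared between genes only as CPM per kilobase of exon (CPM/kb), averaged over the 5 libraries of a group. In WT the highest level was that of Hprt (151 CPM/kb), followed at a distance by Ggh (31.3), Dck (27.0), Mthfd2 (26.0), Umps (24.0), Ctps2 (23.4) and Paics (22.7). Of these 7, only Umps and Paics rose. In LAIR1KO the order below Hprt (150) was Umps (35.8), Paics (31.4), Rrm2 (28.2) and Dtymk (28.1). Per kilobase, Ctps was at 0.139 times the level of Ctps2 in WT and 0.264 times in LAIR1KO. Rrm2 was 14.3 times as abundant as Rrm2b in WT and 28.9 times in LAIR1KO (both from the mean log2 ratio). Lengths are those of all annotated exons of a gene, so the order of near neighbours depends on which isoforms are expressed.

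The 5 LAIR1KO libraries were not alike. Of the 23 members that rose, 18 were highest in LAIR1KO replicate 5, 4 in LAIR1KO replicate 4 and 1 in LAIR1KO replicate 2, and in 15 the lowest LAIR1KO library was replicate 3. Among all 688 genes higher in LAIR1KO, 53.8% were highest in replicate 5 and 26.3% in replicate 4. Mitosis genes were likewise highest in LAIR1KO replicates 4 and 5 and lowest, of that group, in replicate 3. Their summed level was 548, 725, 516, 575 and 701 CPM in WT and 1310, 1440, 1030, 1920 and 1950 CPM in LAIR1KO, and 23 of the 24 were higher. Of 26 DNA replication genes outside the members, 21 were higher and 0 lower (edgeR, with 0 lower also at an unadjusted p below 0.05, in DESeq2 and in limma voom), with a median log2 fold change of 0.82.

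Markers of myeloid progenitors, the dividing precursors in marrow, also moved with these genes. Of the 12 markers examined, 10 were higher and 0 lower in edgeR (0 lower also at an unadjusted p below 0.05, in DESeq2 and in limma voom), none was at 0 in all libraries, and their summed level was 645, 1450, 560, 847 and 779 CPM in WT and 3770, 4040, 3250, 5540 and 6950 CPM in LAIR1KO. The marker with the highest CPM was Mpo, at 336 to 915 CPM in WT and 2360 to 5100 CPM in LAIR1KO. LAIR1KO replicates 5 and 4 had the highest sums of both lists and LAIR1KO replicate 3 the lowest of its group. Of the 23 members, 16 had replicates 4 and 5 of LAIR1KO as their 2 highest libraries. In 15 replicate 3 was the lowest LAIR1KO library, and these were not all the same members. The part that a different share of dividing precursors among the sorted cells has in the differences of the members was not tested. Markers of classical monocytes, summed to 687 to 1250 CPM in WT and 978 to 1390 CPM in LAIR1KO, had 2 of 7 tested members higher and 0 lower in edgeR, and 1 lower in DESeq2 and 1 at an unadjusted p below 0.05 in edgeR. The marker of that list with the highest CPM, Ccr2, stood at 648 ± 187 CPM (WT) against 423 ± 59.4 CPM (LAIR1KO) (log2 fold change -0.62 ± 0.18, adjusted p = 0.0588). Neutrophil, B cell and plasma cell markers had 0 called (edgeR and DESeq2, with 1, 1 and 0 at an unadjusted p below 0.05). Macrophage markers moved the other way, with 7 of 9 tested lower and sums of 1560 to 2100 CPM in WT and 864 to 1080 CPM in LAIR1KO. Dendritic cell markers had 3 of 7 lower, with sums of 309 to 451 CPM (WT) against 200 to 268 CPM (LAIR1KO), and 4 of 9 erythroid markers were lower in edgeR and 0 in limma voom, with sums of 82.7 to 1300 CPM (WT) against 38.0 to 117 CPM (LAIR1KO). Platelet markers had 1 of 3 lower, with sums of 7.07 to 152 CPM (WT) against 3.25 to 11.6 CPM (LAIR1KO). A single library set the top of each of the last 2 WT ranges. The remaining WT libraries reached 327 CPM for erythroid markers (without WT replicate 2) and 27.9 CPM for platelet markers (without WT replicate 5). Of T and NK cell markers 1 was tested, Nkg7, which was higher (log2 fold change 1.35 ± 0.31, adjusted p = 0.0206). Of eosinophil, basophil and mast cell markers 1 of 4, Prg2, was higher in edgeR (log2 fold change 4.42 ± 0.91, adjusted p = 0.0111) and 0 in limma voom. Their sums were 1.08 to 65.7 CPM (WT) against 26.3 to 130 CPM (LAIR1KO). Prg2 stood at 0.542 to 3.03 CPM in WT and 34.5, 4.17, 2.78, 85.3 and 13.4 CPM in the LAIR1KO libraries, so its groups overlapped. The part of these cell types in the differences of the members was not tested either.

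On the scale of mean log2(CPM + 1) relative to the mean of the WT libraries, the ribonucleotide reductase genes stood at 0.58, 0.55, 0.38, 0.91 and 0.96 in the LAIR1KO libraries. Serine synthesis genes stood at 0.96, 0.84, 0.64, 1.04 and 1.26 and de novo purine genes at 0.43, 0.49, 0.56, 0.60 and 0.93. Mitosis genes stood at 1.12, 1.25, 0.75, 1.64 and 1.65 in the same libraries. The mean levels of these lists were above WT in all 5 LAIR1KO libraries, including replicate 3.

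**Figure D4:**
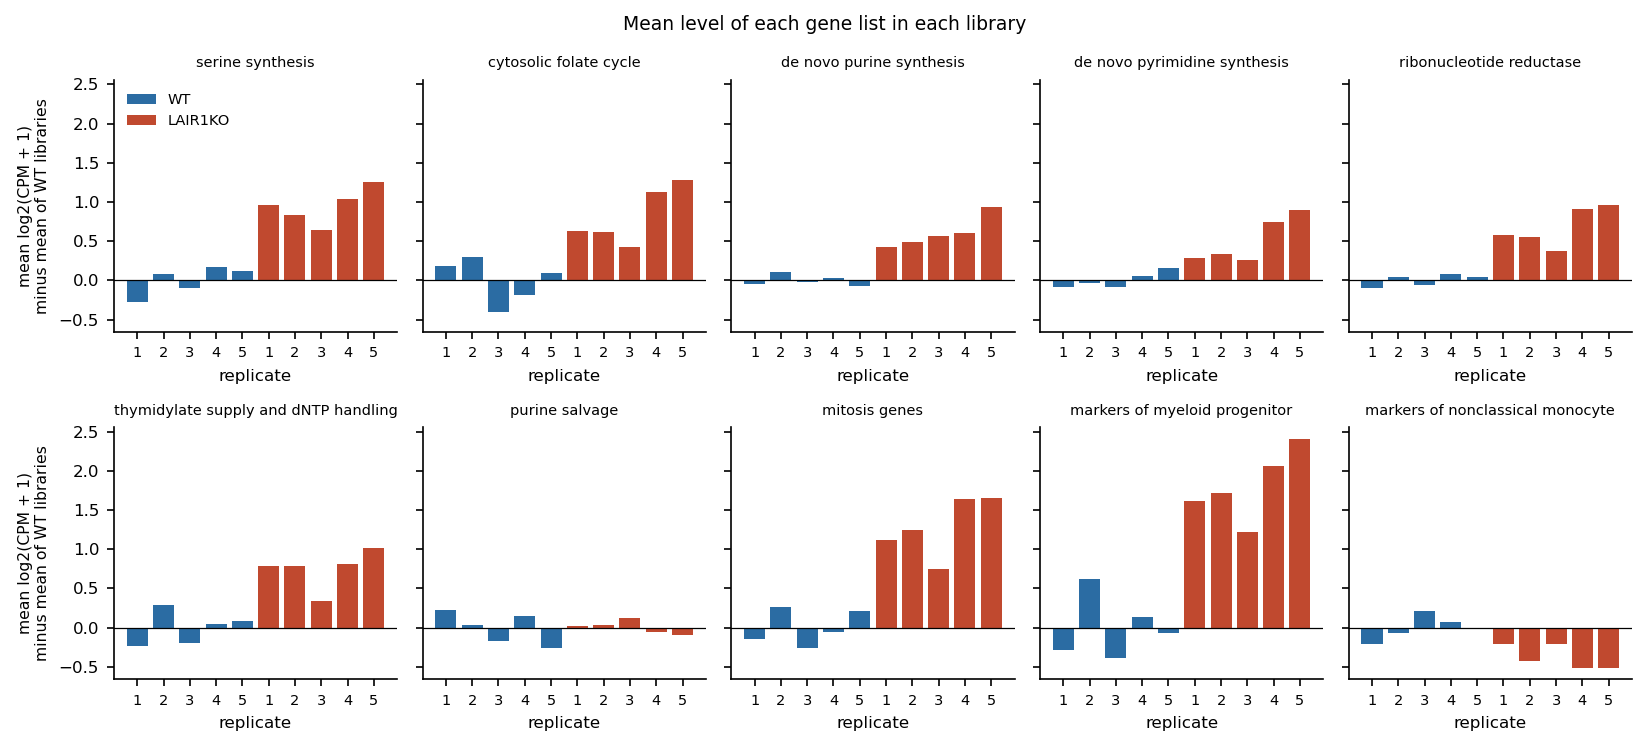
Mean log2(CPM + 1) of the tested genes of each list in each of the 10 libraries, minus the mean of the 5 WT libraries (bars from 0; replicates 1 to 5 of WT, then of LAIR1KO). LAIR1KO replicates 4 and 5 are highest and replicate 3 lowest of its group for mitosis genes and progenitor markers, and purine salvage (Hprt) stays between -0.26 and 0.23 in all libraries.

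LAIR1KO replicates 4 and 5 were the 2 highest of all libraries for 16 of the 23 members. A fit without them was therefore bound to give smaller differences for most members. In that fit 13 of the 23 members passed (376 of all genes did). These were Phgdh, Psat1, Slc19a1, Shmt1, Mthfd1, Shmt2, Gart, Pfas, Paics, Rrm1, Rrm2, Tyms and Dtymk. Lost were Fpgs, Prps2, Ppat, Adsl, Impdh2, Umps, Ctps, Dut, Tk1 and Nme1 (adjusted p = 0.0521 to 0.211), and the median log2 fold change of the 41 members was 0.48. The fit without WT replicates 1 and 4, which also keeps 8 libraries, left 13 members and 338 genes. In 11 members, namely Phgdh, Psat1, Slc19a1, Shmt1, Mthfd1, Shmt2, Gart, Rrm1, Rrm2, Tyms and Dtymk, the call held in each of the 23 alternative fits.

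Other genes of the same pathways were taken from lists of salvage, kinase and breakdown enzymes and of methionine, folate and serine handling. Of 39 tested genes of nucleotide salvage, phosphorylation and breakdown, 9 were higher and 0 lower in edgeR (median log2 fold change 0.09), while DESeq2 called 2 lower and limma voom 0, and 6 were lower at an unadjusted p below 0.05. Adk, the kinase that salvages adenosine, stood at 27.3, 23.7, 15.8, 21.2 and 17.8 CPM in the WT libraries and 36.5, 39.4, 33.9, 43.9 and 49.8 CPM in the LAIR1KO libraries, with no overlap (log2 fold change 0.94 ± 0.16, adjusted p = 0.00465). Uck2, a uridine and cytidine kinase, stood at 7.61, 19.9, 8.85, 5.52 and 10.8 CPM in the WT libraries and 29.8, 35.0, 17.4, 49.5 and 82.5 CPM in the LAIR1KO libraries, and LAIR1KO replicate 3 lay below WT replicate 2 (log2 fold change 2.02 ± 0.41, adjusted p = 0.0101, and adjusted p = 0.0684 without LAIR1KO replicates 4 and 5). Nme4, a mitochondrial nucleoside diphosphate kinase, stood at 3.43, 6.65, 2.53, 6.62 and 7.05 CPM in the WT libraries and 16.2, 17.4, 11, 19.9 and 21.2 CPM in the LAIR1KO libraries (log2 fold change 1.70 ± 0.29, adjusted p = 0.00383). Gmpr, which returns GMP to IMP, stood at 2.17, 2.44, 0.892, 1.72 and 1.70 CPM in the WT libraries and 5.56, 6.86, 2.39, 5.69 and 6.23 CPM in the LAIR1KO libraries (log2 fold change 1.58 ± 0.34, adjusted p = 0.0134). It overlapped between WT replicate 2 and LAIR1KO replicate 3. Ak4, a mitochondrial adenylate kinase, was at or near the limit of 3 counts in WT, with 0, 0.252, 0.0744, 0.276 and 0.31 CPM, and stood at 2.49, 1.75, 2.12, 5.22 and 4.27 CPM in LAIR1KO (edgeR adjusted p = 0.00155). The genes of that list with the highest CPM, named after their values were seen, were Samhd1, which breaks down dNTPs, and Xdh, which oxidises hypoxanthine to urate. Samhd1 stood at 1310 ± 108 CPM (WT) against 1110 ± 138 CPM (LAIR1KO) (log2 fold change -0.24 ± 0.10, adjusted p = 0.194), and Xdh at 1100 ± 102 CPM (WT) against 1040 ± 127 CPM (LAIR1KO) (log2 fold change -0.09 ± 0.10, adjusted p = 0.67).

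Of 21 tested genes of methionine, folate and serine handling, 3 were higher and 0 lower (median log2 fold change 0.15; 0 lower also in DESeq2 and limma voom, and 1 at an unadjusted p below 0.05 in edgeR). Sfxn1, a mitochondrial serine carrier, stood at 26.8, 32.8, 27.9, 43.9 and 44.8 CPM in the WT libraries and 59.0, 56.3, 47.3, 61.6 and 91.4 CPM in the LAIR1KO libraries. It had no overlap (log2 fold change 0.84 ± 0.20, adjusted p = 0.0215) and lost its call without WT replicate 1, 2 or 3 (adjusted p = 0.0545 to 0.0594). Mat2a, which makes the methyl donor S-adenosylmethionine, stood at 339, 301, 296, 342 and 399 CPM in the WT libraries and 409, 477, 415, 559 and 466 CPM in the LAIR1KO libraries, also with no overlap (log2 fold change 0.47 ± 0.11, adjusted p = 0.0237), and lost its call without WT replicate 1, 2 or 3 or LAIR1KO replicate 2 or 4 (adjusted p = 0.0515 to 0.0669). Gcsh, of the glycine cleavage system, stood at 4.65 ± 1.54 CPM (WT) against 8.69 ± 1.59 CPM (LAIR1KO) (log2 fold change 0.90 ± 0.25, adjusted p = 0.0464). Leaving out 1 library ended the call of Gcsh in 8 of 10 fits, all but those without WT replicate 2 or LAIR1KO replicate 3 (adjusted p = 0.0708 to 0.113). Atf4, a transcription factor that drives serine synthesis genes in other settings and was named here after its value was seen, stood at 85.1 ± 8.32 CPM (WT) against 84.6 ± 6.40 CPM (LAIR1KO) and had no call (log2 fold change -0.01 ± 0.10, adjusted p = 0.975).

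RefSeq promoter windows were present for 38 of the 43 members, 22 of them among the 23 that rose, and for 27025 genes in all. An E2F motif, searched on both strands as TTTCCCGC, TTTGGCGC, TTTCGCGC or TTTGCCGC, was found in 2 members, Ppat and Prps2 (5.26%, against 2.60% of all genes with a window). The E-box CACGTG was found in 6 members (15.8% against 8.09%), of which Dtymk, Impdh2, Nme1, Paics and Tyms rose and Atic did not pass. A CCAAT box was found in 20 members (52.6% against 41.1%), of which 11 rose. The ATF4 element TGATGNAA was found in 1 member, Prps1 (2.63% against 4.51%). The 4 spellings counted as 1 motif, matches of different motifs were not screened for overlap, and the shares are descriptions without a test.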

How the data were processed

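The deposited values were raw counts for 52636 Ensembl genes in 10 libraries, not normalized by the authors. Alignment was with GSNAP, against GRCm38.p5, per the submitters' processing notes. The sources used here do not give the counting tool, annotation release, strand setting or filters, so overlapping and near-identical genes cannot be told apart. Columns were matched to libraries by the identifier in the titles, and 0 columns were left over. Symbols, positions and exon lengths came from GENCODE M21 (GRCm38), which matched 52489 of the 52636 identifiers.

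Testing used edgeR 4.0.16 under R 4.3.3: filterByExpr by group (minimum count 10, minimum total 15), TMM scaling and the quasi-likelihood test of LAIR1KO against WT with no covariate. Each SE is the fold change over the square root of F. Exact permutation tests used SciPy 1.17.1 and all resamples. No library repeated another (chi-square per degree of freedom 15.5 to 78.3 between replicates). Total counts of at least 12106209 per library set the depth. The procedure was tested on simulated data. Alternatives used limma 3.58.1 and DESeq2 1.42.0, other scalings and filters, a GC content and length correction, the replicate number as a block and left-out libraries. The members, lists and the libraries left out in pairs were chosen with earlier results of these data known. Text names each member past the threshold and that with the highest CPM of each role, and up to 5 other pathway genes per list with the smallest p.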

Additional observations from a re-analysis of the deposited data

How the results depend on the processing

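The count of members higher in LAIR1KO was 19 to 25 with each library left out in turn and 20 to 27 under the other settings with all libraries. It was 13 without LAIR1KO replicates 4 and 5 and 13 without WT replicates 1 and 4. No member was lower in LAIR1KO in any of the 23 alternatives (edgeR, limma voom and DESeq2), and no called member reversed. The median log2 fold change of the members was 0.48 to 0.77. The number of all genes past the threshold was 914, and it was 1379 with library totals, 1516 with DESeq2, 376 without LAIR1KO replicates 4 and 5, 338 without WT replicates 1 and 4, and 535 to 1170 with each library left out (585 without WT replicate 3, 535 without LAIR1KO replicate 4, 594 without LAIR1KO replicate 5). The cause was not tested, other than that fits with fewer libraries have fewer samples. With library totals the median of all genes moved to 0.13 and higher genes made up 90.1% of the calls, against 75.3% with TMM and 62.8% after removal of the trend on GC content and length, and these settings gave 27 and 20 members. With the replicate block 600 genes and 20 members passed. The numbers gave no sign of pairing: deviations of same-numbered libraries correlated at -0.078 to 0.047, and 0 of the 10 libraries matched best with its own number. At their low counts, Aldh1l2 and Gldc could not be tested.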
